A study of Mus musculus with 9 samples.

Results

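The genes described here are 41 mouse genes of the lysosome and of autophagy, taken by gene symbol from the count tables of 9 RNA libraries. The tables list 40879 symbols, and 18619 of these were seen at least 1 time in the 9 libraries. By role, the 41 genes are 5 proteins of the lysosomal membrane, 11 proteases, 7 glycosidases and sulfatases, 6 proteins that handle lipids or serve as cofactors of lysosomal enzymes, 3 parts of the proton pump, the transcription factor Tfeb and 8 genes of autophagy. At least 1 count was recorded for 40 of them, and 39 passed the filter on low counts and were tested among 11980 genes.

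The lysosome is an acidic organelle in which proteins, lipids and sugars are broken down by hydrolases. A vacuolar proton pump keeps it acidic, and its membrane is lined with heavily glycosylated proteins. In autophagy, parts of the cell are enclosed in a double membrane that carries proteins of the LC3 and GABARAP family, and the vesicle then fuses with a lysosome. The transcription factor TFEB is known to bind short E-box elements in the promoters of many lysosomal genes. The beta-galactosidase stain widely used to mark senescent cells reads the activity of the lysosomal enzyme that is encoded by Glb1.

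All 9 libraries came from 3D muscle constructs of C2C12, an established mouse myoblast line with the genotype given as WT, embedded in extracellular matrix made from muscle tissue. There were 3 irradiated, 3 cocultured and 3 normal constructs. Irradiated constructs had received 20 Gy of X-rays in 1 dose to bring on senescence. Cocultured constructs were not irradiated themselves but had shared a dish with an irradiated construct. Normal constructs were neither irradiated nor cocultured with an irradiated one. Every group was kept for 2 days in growth medium and for 10 days in differentiation medium with 10% equine serum. The labels do not state the day of irradiation or the time from irradiation to harvest. The design text describes 2 constructs of 1 condition in a dish, each harvested separately, and counts 2 irradiated and 2 normal constructs where the labels list 3 of each. Replicates may therefore share a dish, and all come from 1 cell line, so the p-values measure only the spread between these samples, part of which may be technical. The irradiated against normal comparison asks what differs in constructs made senescent, and the cocultured against normal comparison asks what differs in constructs exposed to a senescent neighbour.

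The libraries held 6485655 to 8290468 gene counts in irradiated, 7506605 to 8035763 in cocultured and 4840993 to 6607557 in normal constructs. Levels are given in CPM, counts scaled to a common library total after trimmed-mean correction. Each read comes from the 3′ end of a transcript, so a level was compared between samples and never between genes. Irradiated 2 and irradiated 3 had counts for 8306 and 8654 genes, against 11126 in irradiated 1, 10002 to 11851 in cocultured and 11329 to 14159 in normal constructs. Adult sarcomere genes took 11.8% of the counts of irradiated 1 and 15.3% of those of normal 3, and everywhere else 0.818% to 2.55%. Transcripts of the mitochondrial genome likewise took 21.6% in irradiated 1 and 29.7% in normal 3, against 5.76% to 13.4% elsewhere. The 12 myogenic markers summed to 2483 to 2974 CPM in irradiated, 1649 to 3097 CPM in cocultured and 1746 to 2757 CPM in normal constructs. Because macrophages are rich in lysosomes, 16 macrophage markers were read as well: 2 to 7 of them had a count in the irradiated libraries, 2 to 6 in the cocultured and 3 to 8 in the normal ones, and their summed levels were 1.53 to 70.1 CPM in irradiated, 31.8 to 169 CPM in cocultured and 108 to 459 CPM in normal constructs. Cd14 made up 52.9% to 99.9% of that sum in 8 libraries and 6.99% in irradiated 1, and without it the sums were 65.2 CPM in irradiated 1 and 73.6 CPM in normal 3, against 0.113 to 16.5 CPM in the other 7. In irradiated 1 the other counts came mainly from Fcgr3 (89), Csf1r (74), C1qa (72) and Cd163 (48), and in normal 3 from Csf1r (136), Laptm5 (42), Itgam (38) and C1qc (32). Of the same 16 markers, Aif1 had no count in any library, Ptprc had 1 count in all and Adgre1 had 14 counts, in normal 2. The sum of 10 endothelial markers was likewise 103 CPM in irradiated 1 and 148 CPM in normal 3, against 2.07 to 29.5 CPM elsewhere. Gm26917 alone took 4.76% to 12.0% of the counts in irradiated, 3.38% to 3.91% in cocultured and 9.47% to 27.4% in normal constructs. The part of these library differences in the results was not tested. For the leading genes the log2 fold changes are also given without irradiated 1 and normal 3, and without irradiated 2 and irradiated 3, which leaves irradiated 1 as the only irradiated library, assumed to vary like the other groups.

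In irradiated constructs most of the 39 tested genes had a higher mean level than in normal constructs. However, no single gene passed the edgeR test after adjustment over all genes. Npc2 and Atp6v1a passed in DESeq2 alone, which is 2 of 39, where DESeq2 called 455 of the 11980 genes. The genes with the smallest p-values on the high side were Atp6v1a, a subunit of the proton pump, and Hexa, Gm2a, Lipa, Npc2 and Ctsb, which act on gangliosides, cholesterol, cholesteryl esters and proteins. Between cocultured and normal constructs positive and negative differences were about equal in number. Lipa was higher and Grn and Atp6ap1 were lower at unadjusted edgeR p-values only. These are 1 and 2 of 39, against 0.851% and 3.26% of all genes, and the counts changed with the scaling. The core autophagy genes showed no common direction. Of the 39, only Becn1 had levels in both other groups that lay entirely under those of normal constructs. Over all genes, 11.8% lay entirely lower in irradiated and 7.51% in cocultured constructs. Wipi1, from a wider autophagy list, lay as Becn1 did.

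Summed over the 41 genes, the irradiated libraries held 10067 to 10814 CPM, the cocultured ones 7517 to 9153 CPM and the normal ones 7503 to 9343 CPM. With trimmed-mean scaling the irradiated sums lay above all the others. As shares of the raw counts the groups overlapped. The shares were 0.783% to 1.30% in irradiated, 0.900% to 1.10% in cocultured and 0.415% to 0.901% in normal constructs, and irradiated 1 was the library at 0.783%. Cd63 contributed the most counts, and without it the sums were 8045 to 8403 CPM in irradiated, 5965 to 7121 CPM in cocultured and 6030 to 6749 CPM in normal constructs, again without overlap between irradiated libraries and the rest. Of the 39 tested genes, 29 had their highest library in the irradiated group, 2 in the cocultured and 8 in the normal group. The lowest library belonged to the irradiated group for 10 genes, to the cocultured for 11 and to the normal for 18. Irradiated 1 alone was highest for 13 genes and irradiated 2 for 10, while normal 3 was lowest for 10. Such counts were not made over all genes tested, so they have no background here. Irradiated replicates were the least alike, with rank correlations over genes of 0.51 to 0.57. These were 0.73 to 0.82 in cocultured and 0.67 to 0.78 in normal constructs. The part of this spread in the counts was not tested. In bulk RNA of this kind, a change in the share of a cell type and a change in RNA per cell cannot be told apart.

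**Figure D1:**
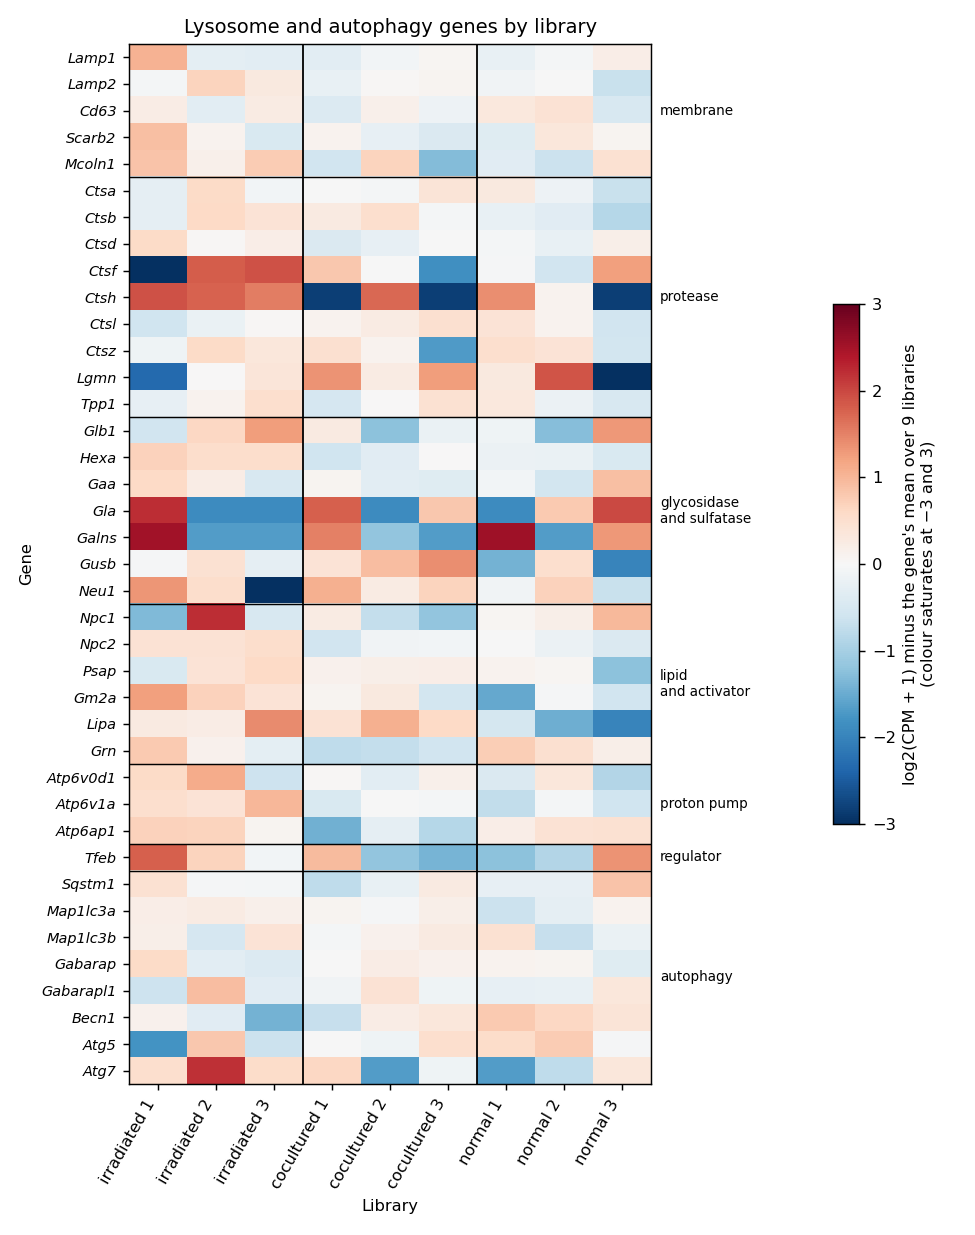
Each row is 1 of the 39 tested genes grouped by role, each column 1 library, and colour gives log2(CPM + 1) minus the mean of that gene over the 9 libraries. The irradiated columns hold the highest library for 29 genes, in most cases in irradiated 1 or irradiated 2, and normal 3 is lowest for 10. Such counts were not made over all genes tested.

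Between irradiated and normal constructs, 29 of the 39 tested genes had a positive and 10 a negative log2 fold change, with a median of 0.32. Over all 11980 genes tested the median was -0.21, with 5007 positive and 6973 negative. Among genes with a mean of at least 50 CPM, the median was 0.24 for 24 of the genes described here and -0.08 for all 3145. The quasi-likelihood test of edgeR, with p-values adjusted by Benjamini-Hochberg over all genes, called 0 of the 39 at an adjusted p under 0.05, where it called 0.0584% of all genes. At an unadjusted p under 0.05 the count was 6 higher and 0 lower, against 1.59% of all genes higher and 8.7% lower. The 6 were Atp6v1a, Hexa, Gm2a, Lipa, Npc2 and Ctsb. Of the other tools, DESeq2 called 2 of the 39 (Npc2 and Atp6v1a), where it called 455 of the 11980 genes. limma voom called 0 of the 39, where it called 25 of the 11980 genes. The ranges of the irradiated and normal libraries did not overlap for 8 genes that lay higher (Ctsh, Hexa, Npc2, Gm2a, Lipa, Atp6v1a, Map1lc3a and Atg7) and for 1 that lay lower (Becn1), against 3.94% and 11.8% of all genes. At a mean of at least 50 CPM these were 5 and 1 of 24, against 6.3% and 11.4% of genes.

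Between cocultured and normal constructs, 18 genes had a positive and 21 a negative log2 fold change, and the median was -0.02 against -0.07 over all genes. The sign of that median turned with the scaling, since library totals alone gave 0.61 for these genes and 0.48 for all genes. No gene among the 39 was called at an adjusted p under 0.05 by edgeR, DESeq2 or limma voom. In edgeR 0% of all genes were called, and DESeq2 called 124 of the 11980 genes. Lipa was higher and Grn and Atp6ap1 lower at an unadjusted p under 0.05, which is 1 and 2 of 39, against 0.851% and 3.26% of all genes. With library totals the same counts were 3 higher and 0 lower. With trimmed-mean scaling and a mean of at least 50 CPM they were 0 and 2 of 24, against 2.1% and 2.38% of genes. Groups lay apart for Ctsb, Psap and Lipa (higher) and for Atp6ap1, Grn and Becn1 (lower), against 5.66% and 7.51% of all genes. At a mean of at least 50 CPM these were 2 and 3 of 24, against 7.6% and 6.74% of genes.

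Between irradiated and cocultured constructs, 30 genes had a positive and 9 a negative log2 fold change, with a median of 0.37 against -0.10 over all genes. edgeR called 0 of the 39 at an adjusted p under 0.05, against 0.0334% of all genes. At an unadjusted p under 0.05, Atp6ap1, Hexa, Grn, Atp6v1a and Npc2 were higher and none was lower, which is 5 and 0 of 39, against 2.25% and 7.33% of all genes. DESeq2 called 2 of the 39, Npc2 and Atp6ap1, where it called 529 of the 11980 genes. limma voom called 1 of the 39, Npc2, where it called 105 of the 11980 genes. The irradiated libraries lay wholly above the cocultured ones for 7 genes (Ctsd, Hexa, Npc2, Gm2a, Atp6v1a, Atp6ap1 and Grn) and wholly below for 1 (Ctsl), against 3.9% and 10.6% of all genes. At a mean of at least 50 CPM these were 7 and 1 of 24, against 6.39% and 12.7% of genes. This comparison and the comparison with normal constructs use the same irradiated libraries, so a gene that stands out in both was not measured independently in each.

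**Figure D2:**
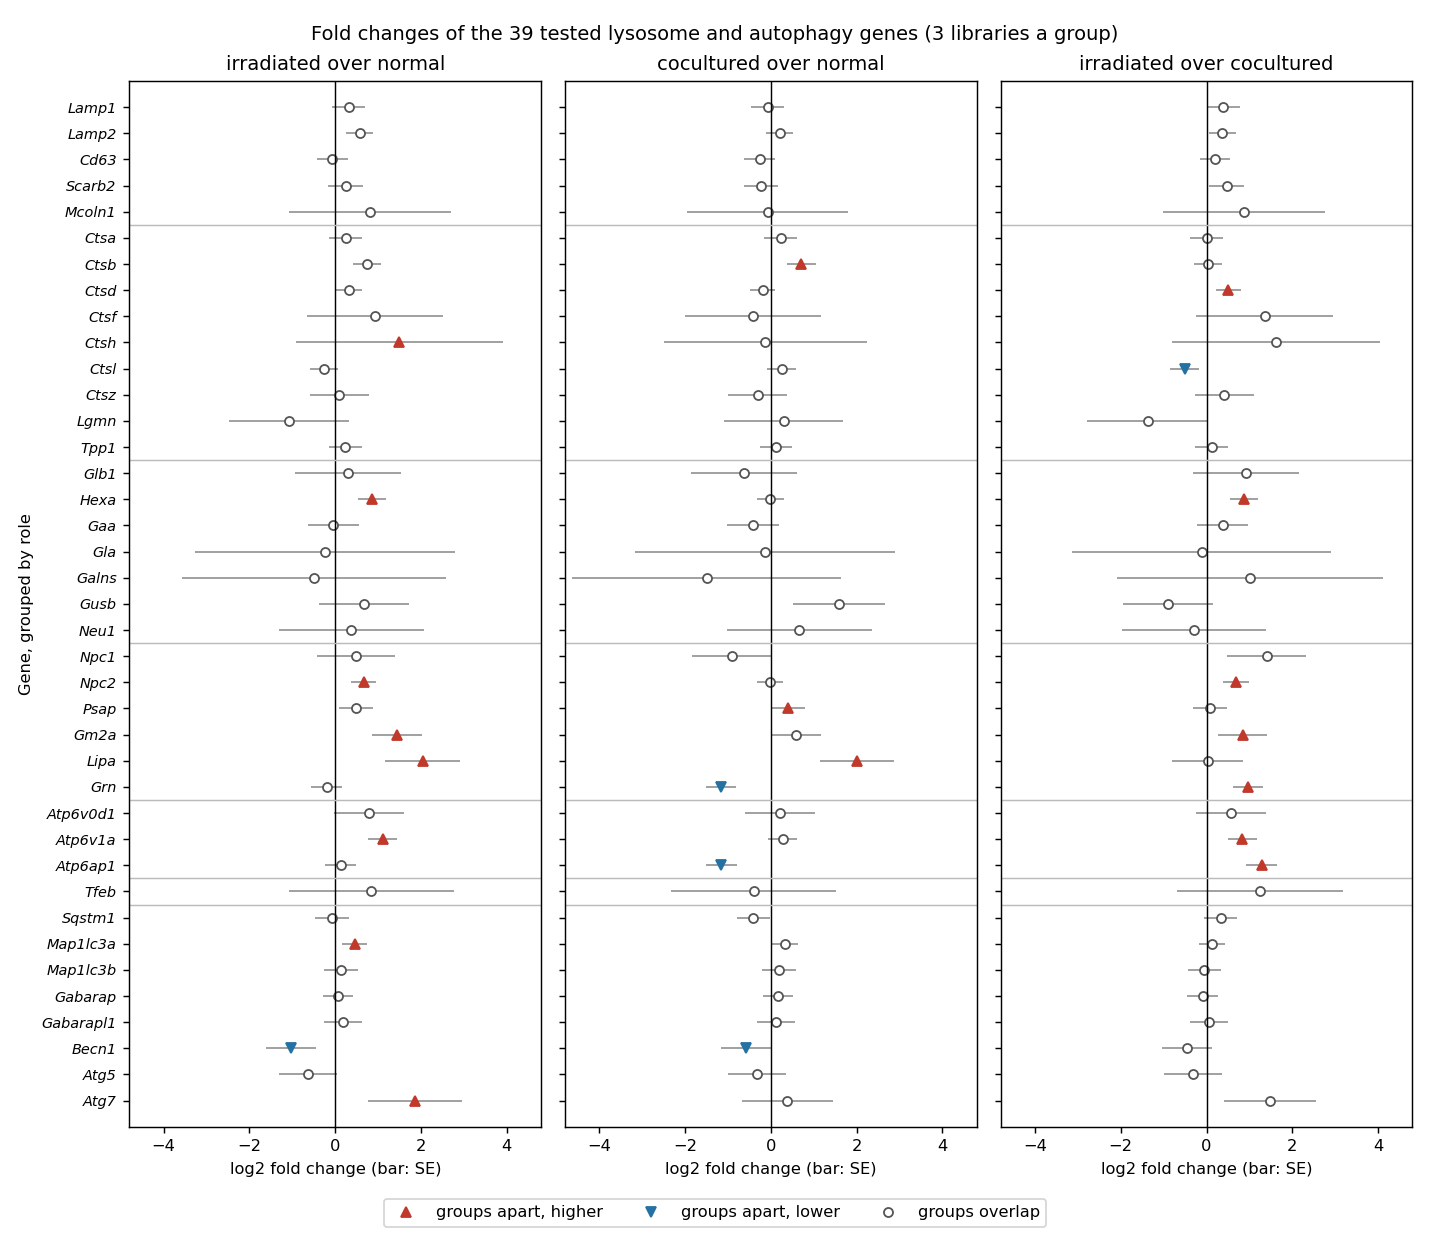
Points are edgeR log2 fold changes of the 39 tested genes, grouped by role from membrane proteins at the top to autophagy genes at the bottom, and bars are standard errors. Triangles mark genes whose 3 libraries in 1 group all lay above or below the 3 of the other, which holds for 8 and 1 genes of irradiated over normal, 3 and 3 of cocultured over normal and 7 and 1 of irradiated over cocultured.

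The proton pump gave the gene with the smallest p of irradiated against normal constructs. Atp6v1a, which encodes the catalytic A subunit of the vacuolar ATPase, measured 255, 236 and 358 CPM in the irradiated libraries, 129, 178 and 171 in the cocultured ones and 107, 171 and 117 in the normal ones. All irradiated values lay above all cocultured and normal ones, which overlapped each other. The means were 283 ± 65.4 CPM in irradiated, 159 ± 26.5 in cocultured and 132 ± 34.7 in normal constructs (SD, n = 3 each). Irradiated over normal gave a log2 fold change of 1.10 ± 0.34 (SE, as for all such values below; adjusted p = 0.381 in edgeR), and DESeq2 gave 1.18 with an adjusted p of 0.0378, the lowest over the alternatives tried, which reached 0.742. Against cocultured constructs the log2 fold change was 0.83 ± 0.34 (adjusted p = 0.493 in edgeR). Without irradiated 1 and normal 3, the libraries high in sarcomere RNA, the log2 fold change over normal was 1.11, and without irradiated 2 and irradiated 3 it was 0.95. Over cocultured these values were 0.92 and 0.67.

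Atp6ap1, an accessory protein that takes part in assembling the pump, showed another order of groups. Its levels were 267, 265 and 175 CPM in irradiated constructs, 60.6, 138 and 91.7 CPM in cocultured constructs and 191, 226 and 229 CPM in normal constructs. Cocultured constructs lay below both other groups, which overlapped. The log2 fold change was -1.15 ± 0.37 (SE) for cocultured against normal (adjusted p = 1 in edgeR) and 1.28 ± 0.37 for irradiated against cocultured (adjusted p = 0.421 in edgeR). DESeq2 put the difference of irradiated from cocultured constructs at 1.39 with an adjusted p of 0.0192, the lowest over the alternatives, which reached 0.694. Without irradiated 1 and normal 3 the log2 fold changes were -1.11 for cocultured against normal and 1.20 for irradiated against cocultured, and without irradiated 2 and irradiated 3 they were -1.15 and 1.46. Over all alternatives tried they ran between -1.50 and -0.58 for cocultured against normal. For irradiated against cocultured they ran between 1.03 and 1.63. Atp6v0d1, a subunit of the membrane sector that links it to the catalytic part, measured 46.8, 68.6 and 19.8 CPM (irradiated), 31.9, 24.6 and 34.5 CPM (cocultured) and 22.6, 39.5 and 16.4 CPM (normal). Its 3 groups overlapped, and irradiated 2 was the highest library.

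Of 13 tested genes for other subunits of the pump, from a list of 14, none was called in any comparison by edgeR. Irradiated over normal gave 5 positive and 8 negative values around a median log2 fold change of -0.09. Atp6v1h, a regulatory subunit of the catalytic sector, had the smallest p of that list in this comparison, with 21.9, 51.7 and 61.4 CPM in irradiated against 11.1, 7.27 and 15.6 CPM in normal constructs (adjusted p = 0.534 in edgeR). It also had the smallest p of the list between cocultured and normal constructs, with 12.3, 11.8 and 47.2 CPM in the cocultured libraries and a log2 fold change of 1.07 (adjusted p = 1 in edgeR). Between irradiated and cocultured constructs that place went to Atp6v1d, a subunit of the central stalk, with 247, 135 and 299.8 CPM in irradiated against 126, 147 and 64.5 CPM in cocultured constructs (adjusted p = 0.493 in edgeR).

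Among the 6 genes of lipid handling and cofactors, 5 had a positive log2 fold change in irradiated over normal constructs and all 6 in irradiated over cocultured constructs, with medians of 0.58 and 0.76. Npc2, the soluble protein that hands cholesterol to NPC1 inside the lysosome, measured 1306, 1297 and 1384 CPM in the irradiated libraries, 652, 905 and 919 in the cocultured ones and 953, 850.3 and 713 in the normal ones. The irradiated values were close together and all above the rest, and the other groups overlapped. Means were 1329 ± 47.7 CPM in irradiated, 826 ± 150.1 CPM in cocultured and 839 ± 120.1 CPM in normal constructs (SD, n = 3 each). edgeR gave a log2 fold change of 0.66 ± 0.30 over normal (adjusted p = 0.483) and 0.69 ± 0.30 over cocultured (adjusted p = 0.493). The same differences were called by DESeq2, at 0.74 with an adjusted p of 0.0288 and at 0.79 with an adjusted p of 0.0140, and limma voom called only that against cocultured constructs, at 0.71 with an adjusted p of 0.0364. Without irradiated 1 and normal 3 the log2 fold change over normal was 0.59, and without irradiated 2 and irradiated 3 it was 0.64; over cocultured these were 0.72 and 0.65. Over the alternatives tried, the adjusted p ran between 0.0288 and 0.872 for irradiated against normal and between 0.0140 and 0.914 for irradiated against cocultured constructs.

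Npc1 is the membrane partner that takes cholesterol from NPC2. Its levels were 12.1, 152 and 22.5 CPM in irradiated constructs, 37.7, 19.1 and 13.6 CPM in cocultured constructs and 33.1, 36.4 and 63.8 CPM in normal constructs, with irradiated 2 far above every other library. The groups overlapped in each comparison, with log2 fold changes of 0.49 ± 0.91 for irradiated over normal and 1.41 ± 0.92 for irradiated over cocultured. Gm2a, the activator protein that presents GM2 ganglioside to hexosaminidase A, measured 121, 82.4 and 67.5 CPM (irradiated), 54.2, 62.1 and 34.5 CPM (cocultured) and 17.0, 49.5 and 33.9 CPM (normal). Irradiated libraries lay above both other groups, with a log2 fold change of 1.43 ± 0.58 over normal (adjusted p = 0.483 in edgeR). It was 1.19 without irradiated 1 and normal 3 and 1.85 without irradiated 2 and irradiated 3. Over cocultured it was 0.84 ± 0.57 with all libraries, and 0.59 and 1.26 with those left out.

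Lipa encodes lysosomal acid lipase, which frees cholesterol from its esters. It measured 30.9, 30.2 and 69.7 CPM in the irradiated libraries, 34.7, 54.6 and 38.99 in the cocultured ones and 17.5, 8.64 and 5.75 in the normal ones. Here irradiated and cocultured libraries overlapped and all 6 lay above the 3 normal ones. The log2 fold change over normal was 2.03 ± 0.87 in irradiated (adjusted p = 0.483 in edgeR) and 2.01 ± 0.87 in cocultured constructs (adjusted p = 1 in edgeR). These comparisons share the normal libraries, whose low Lipa values enter both. Without irradiated 1 and normal 3 the values were 1.94 and 1.70, and without irradiated 2 and irradiated 3 they were 1.54 and 2.01.

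Psap, the precursor of the saposins that assist sphingolipid breakdown, measured 527, 961 and 1103 CPM (irradiated), 795, 812 and 829 CPM (cocultured) and 785, 757 and 306 CPM (normal). The cocultured values were nearly equal and above all normal ones, whereas irradiated 1 and normal 3 were both low, and the log2 fold change was 0.40 ± 0.40 for cocultured (adjusted p = 1 in edgeR) and 0.49 ± 0.40 for irradiated constructs. Grn, which encodes progranulin, a secreted and lysosomal protein cleaved into granulins, measured 290.0, 182 and 137 CPM in irradiated constructs, 98.0, 102 and 112 CPM in cocultured constructs and 279, 233 and 189 CPM in normal constructs. The cocultured libraries formed the low group, below all irradiated and all normal ones. Cocultured differed from normal by -1.17 ± 0.36 (SE; adjusted p = 1 in edgeR), and irradiated from cocultured by 0.96 ± 0.35 (adjusted p = 0.493 in edgeR). These differences were -1.30 and 0.63 without irradiated 1 and normal 3, and -1.16 and 1.47 without irradiated 2 and irradiated 3. Over all alternatives tried they ran between -1.30 and -0.66 for cocultured against normal, and between 0.62 and 1.47 for irradiated against cocultured.

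**Figure D3:**
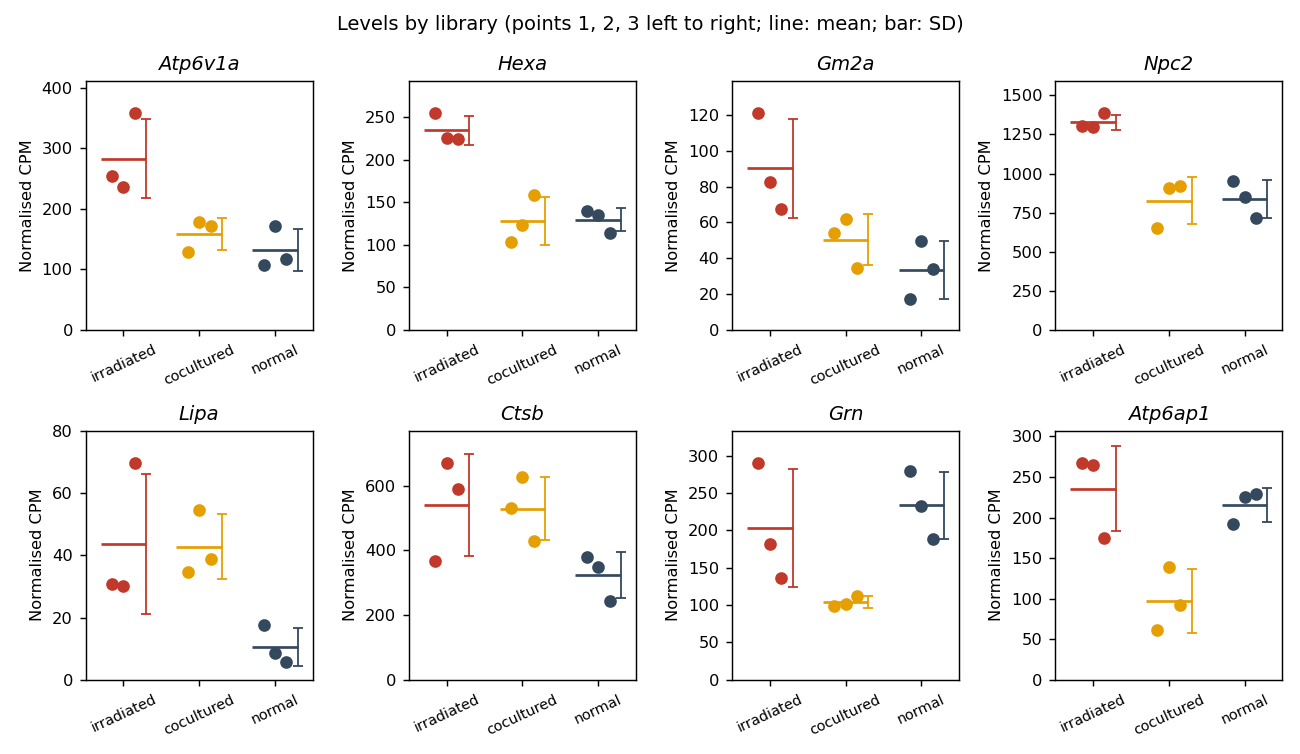
Normalised CPM of 8 genes, with points for libraries 1, 2 and 3 of each group from left to right, a line at the group mean and a bar for the SD. For Atp6v1a, Hexa, Gm2a and Npc2 all 3 irradiated points lie above the cocultured and normal points, for Lipa the normal points lie lowest, and for Grn and Atp6ap1 the cocultured points do.

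The glycosidases were led by Hexa, the alpha subunit of beta-hexosaminidase. Its levels were 254, 226 and 224 CPM in the irradiated libraries, 103, 123 and 158 in the cocultured ones and 139, 135 and 114 in the normal ones. The irradiated libraries lay above all others, which overlapped. The means were 234 ± 17.0 CPM in irradiated, 128 ± 27.9 CPM in cocultured and 129 ± 13.5 CPM in normal constructs (SD, n = 3 each). The log2 fold change was 0.86 ± 0.32 over normal (adjusted p = 0.483 in edgeR) and 0.87 ± 0.32 over cocultured (adjusted p = 0.493 in edgeR). Leaving out irradiated 1 with normal 3 gave 0.73 over normal, and leaving out irradiated 2 with irradiated 3 gave 0.97. Over cocultured the same choices gave 0.83 and 0.98.

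Glb1, the gene behind the senescence stain, measured 10.6, 25.5 and 40.0 CPM (irradiated), 19.7, 6.41 and 14.0 CPM (cocultured) and 14.8, 6.14 and 41.3 CPM (normal). The groups overlapped throughout, and its log2 fold change of 0.29 ± 1.23 between irradiated and normal constructs (adjusted p = 1 in edgeR) rests on 1282 counts in all 9 libraries. Leaving out normal 2 or irradiated 3 turned its sign, to -0.14 and -0.19. Gusb, beta-glucuronidase, measured 19.8, 27.8 and 16.7 CPM in the irradiated libraries, 27.3, 38.99 and 54.4 in the cocultured ones and 6.98, 28.9 and 4.38 in the normal ones, and the highest 2 values were cocultured. Its log2 fold change was 1.58 ± 1.07 for cocultured against normal (adjusted p = 1 in edgeR) and -0.91 ± 1.05 for irradiated against cocultured constructs.

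The other 4 genes of this class were Gaa (acid alpha-glucosidase), Gla (alpha-galactosidase A), Galns (a sulfatase of keratan sulfate) and Neu1 (a sialidase). All had overlapping groups in each comparison, with log2 fold changes between -0.50 and 0.37 for irradiated over normal. Gla and Galns were at 0 in irradiated 2 and irradiated 3 and each in 1 cocultured and 1 normal library, and Neu1 was at 0 in irradiated 3. At these depths 3 counts, the upper limit that a count of 0 allows, correspond to 0.282 to 0.639 CPM in irradiated libraries, 0.310 to 0.339 CPM in cocultured and 0.616 to 0.821 CPM in normal ones, counting error alone.

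Of the 11 proteases, 9 were tested, and 7 of these had a positive log2 fold change between irradiated and normal constructs, with a median of 0.24. Ctsb, cathepsin B, a cysteine protease, measured 366, 669.7 and 589.7 CPM in the irradiated libraries, 532, 626 and 429 in the cocultured ones and 379, 349 and 245 in the normal ones. Cocultured libraries lay above all normal ones, while irradiated 1 fell inside the normal range. The log2 fold change was 0.74 ± 0.33 in irradiated (adjusted p = 0.483 in edgeR) and 0.71 ± 0.33 in cocultured constructs (adjusted p = 1 in edgeR). Without irradiated 1 and normal 3 the values were 0.80 and 0.54, and irradiated 1 alone, with irradiated 2 and irradiated 3 left out, gave 0.17.

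Ctsd, the aspartic protease cathepsin D, had 777, 533 and 604 CPM (irradiated), 388, 443 and 517 CPM (cocultured) and 500.1, 446 and 591 CPM (normal). Irradiated libraries lay above the cocultured ones, with a log2 fold change of 0.51 ± 0.30 (adjusted p = 0.601 in edgeR), and overlapped the normal ones. Ctsl, cathepsin L, went the other way. It had 339.6, 445 and 525 CPM in irradiated constructs, 546, 607 and 711 CPM in cocultured constructs and 676, 549.9 and 341 CPM in normal constructs, so that irradiated lay below cocultured libraries, with a log2 fold change of -0.51 ± 0.33 (adjusted p = 0.69 in edgeR). Lgmn, the asparaginyl protease legumain, measured 1.92, 13.8 and 18.0 CPM (irradiated), 36.7, 16.4 and 34.2 CPM (cocultured) and 17.0, 53.4 and 0.821 CPM (normal). It spread more than 10-fold within the normal group, and its log2 fold change between irradiated and normal constructs of -1.08 ± 1.40 turned to 0.33 without normal 2.

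Ctsk, cathepsin K, had 0 counts in all 9 libraries. Ctss, cathepsin S, had 50 counts in irradiated 1, 1 count in irradiated 3, 66 counts in normal 3 and none elsewhere, and neither gene was tested. Irradiated 1 and normal 3, which hold nearly all Ctss counts, are the libraries high in sarcomere RNA, in macrophage markers other than Cd14 and in endothelial markers, and the part of these in the Ctss counts was not tested. Ctsh, cathepsin H, measured 25.3, 23.1 and 19.4 CPM in the irradiated libraries, 0, 22.03 and 0 in the cocultured ones and 17.5, 6.59 and 0 in the normal ones, and its irradiated values lay above the normal ones at a standard error of 2.42 on a log2 fold change of 1.49. The groups overlapped in every comparison for Ctsa, Ctsf, Ctsz and Tpp1, which encode a carboxypeptidase that also shields other enzymes, cathepsins F and Z and tripeptidyl peptidase 1, and their log2 fold changes ran between 0.10 and 0.93 for irradiated over normal and between -0.42 and 0.23 for cocultured over normal.

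The 5 membrane proteins overlapped between groups in all 3 comparisons. Lamp1, a main glycoprotein of the lysosomal membrane, measured 1242, 492 and 479.6 CPM (irradiated), 486, 569 and 630.2 CPM (cocultured) and 512, 575 and 688 CPM (normal), and its log2 fold change between irradiated and normal constructs was 0.32 with all libraries and -0.28 without irradiated 1. Lamp2, its relative that also serves autophagy, had 348, 577 and 442 CPM in the irradiated libraries, 309.6, 371 and 381 in the cocultured ones and 335, 357 and 228 in the normal ones, with a log2 fold change of 0.57 ± 0.32 between irradiated and normal constructs (adjusted p = 0.606 in edgeR). Cd63, a tetraspanin of late endosomes, lysosomes and exosomes, had 2422, 1665 and 2435 CPM (irradiated), 1552, 2294 and 1864 CPM (cocultured) and 2594, 2770.1 and 1473 CPM (normal). Normal 3 was lowest and the other normal libraries highest, so the irradiated and cocultured values fell inside the normal range. Scarb2, the receptor that delivers glucocerebrosidase, and Mcoln1, a cation channel that releases lysosomal calcium, had log2 fold changes of 0.24 ± 0.41 and 0.80 ± 1.89 for irradiated over normal.

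Tfeb itself measured 25.6, 11.3 and 6.22 CPM in irradiated constructs, 13.8, 2.38 and 1.92 CPM in cocultured constructs and 2.26, 3.18 and 18.6 CPM in normal constructs. Its highest values, in irradiated 1, normal 3 and cocultured 1, stood in different groups, and all comparisons overlapped. The log2 fold change between irradiated and normal constructs was 0.84 ± 1.92 (adjusted p = 1 in edgeR). In a list of 12 genes for its family and for nutrient sensing at the lysosome, 11 were tested and none was called in any comparison by edgeR. Rragc, a GTPase that brings mTORC1 to the lysosome, had the smallest p of the list between irradiated and normal constructs, with 63.2, 95.9 and 49.9 CPM in irradiated, 50.2, 32.0 and 14.1 CPM in cocultured and 30.6, 31.4 and 41.3 CPM in normal constructs (adjusted p = 0.795 in edgeR for irradiated against normal). It was also first between irradiated and cocultured constructs, at 1.12 ± 0.67 on the log2 scale, and Tfe3, a relative of Tfeb, was first between cocultured and normal constructs, at -0.91 ± 0.94.

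Promoter sequence was read for the element that TFEB is known to favour. It was sought as TCACGTGA, which is its own reverse complement and contains the shorter E-box CACGTG, in windows of 250 bases before to 50 bases after each start in RefSeq (GRCm38.p6). A window was found for 35 of the 41 genes, and none for Ctsb, Ctsh, Galns, Npc1, Map1lc3a and Becn1. TCACGTGA was present in 6 of the 35 (17.1%), against 1.12% of 27025 genes and 0.974% of 32851 windows. CACGTG, with or without the outer letters, was in 14 of the 35 (40%), against 8.09% of genes. The longer form, with G before and C after the 8 letters, was in 0 of the 35 and in 0.37% of genes. Such elements are already known from promoters of lysosomal genes. The higher shares of the shorter forms in a list of such genes are therefore no new support for control by TFEB. The 8 occurrences are shown because they mark which of these genes carry the element, each as 30 bases 5′ to 3′ on the strand of the gene with the element in capitals and the place of its first base, the start itself being position 1.
Atp6v1a, chr16:44139373-44139402, minus strand, 132 bases before the start: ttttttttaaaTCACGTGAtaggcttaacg
Atp6v0d1, chr8:105566050-105566079, minus strand, 4 bases before the start: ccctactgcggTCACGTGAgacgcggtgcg
Ctsd, chr7:142387908-142387937, minus strand, 99 bases before the start: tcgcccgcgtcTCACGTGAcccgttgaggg
Mcoln1, chr8:3500462-3500491, plus strand, 46 bases before the start: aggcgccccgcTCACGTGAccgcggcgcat
Ctsa, chr2:164833749-164833778, plus strand, 13 bases before the start: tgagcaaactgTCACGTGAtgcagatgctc
Ctsa, chr2:164833766-164833795, plus strand, at position 5 after the start: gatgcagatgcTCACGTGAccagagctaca
Gla, chrX:134601182-134601211, minus strand, 195 bases before the start: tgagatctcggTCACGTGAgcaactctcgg
Gla, chrX:134601215-134601244, minus strand, 228 bases before the start: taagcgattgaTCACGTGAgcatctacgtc
Of these 6 genes, Atp6v1a had irradiated libraries apart from the normal ones, and the groups of Atp6v0d1, Ctsd, Mcoln1, Ctsa and Gla overlapped in that comparison. Hexa, Npc2, Gm2a, Lipa and Atg7, which lay apart from normal too, have windows without the element. Ctsh, Map1lc3a and Becn1 also lay apart from normal, but no window was found for them. The presence of the letters is a description of the window and does not show that a factor bound there.

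The 8 autophagy genes had no common direction in irradiated over normal constructs, 5 log2 fold changes being positive and 3 negative, around a median of 0.10. Becn1, beclin 1, part of the lipid kinase complex that starts autophagosomes, measured 57.1, 40.9 and 18.8 CPM in the irradiated libraries, 31.9, 61.5 and 65.9 in the cocultured ones and 90.6, 80.2 and 68.7 in the normal ones. All irradiated and all cocultured values lay below the lowest normal one. The log2 fold change was -1.04 ± 0.58 in irradiated (adjusted p = 0.624 in edgeR) and -0.59 ± 0.58 in cocultured constructs (adjusted p = 1 in edgeR). It was negative in both under every alternative tried, between -1.50 and -0.49 for irradiated, and between -0.77 and -0.07 for cocultured constructs.

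Map1lc3a, which encodes LC3A, a protein coupled to lipid on the autophagosome membrane, measured 327, 335 and 315 CPM in irradiated constructs, 297, 277 and 319 CPM in cocultured constructs and 179.7, 233 and 303 CPM in normal constructs. The irradiated values were narrow and above all normal ones, with a log2 fold change of 0.45 ± 0.30 (adjusted p = 0.804 in edgeR). Map1lc3b, for LC3B, had 155, 95.2 and 180.0 CPM (irradiated), 132, 148 and 165 CPM (cocultured) and 188, 84.5 and 118 CPM (normal) with overlapping groups. The related Gabarap had 251, 136 and 127 CPM (irradiated), 167, 196 and 184 CPM (cocultured) and 181, 179.5 and 131 CPM (normal), and Gabarapl1 had 80.7, 239 and 97.9 CPM (irradiated), 116, 169 and 115 CPM (cocultured) and 105, 106 and 158 CPM (normal). In both, 1 irradiated library stood above the rest, irradiated 1 for Gabarap and irradiated 2 for Gabarapl1, and the sign between irradiated and normal constructs turned when that library was left out, to -0.31 and -0.46.

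Sqstm1 encodes p62, the receptor that carries ubiquitin-tagged cargo into autophagosomes and is itself broken down there. It measured 531, 376 and 373 CPM in the irradiated libraries, 227, 328 and 463 in the cocultured ones and 324, 327 and 699 in the normal ones, and normal 3 held the highest value. Its log2 fold change was -0.08 ± 0.39 in irradiated and -0.41 ± 0.39 in cocultured constructs, and without normal 3 these turned to 0.39 and 0.05. Atg5 and Atg7, both needed to attach lipid to the LC3 proteins, had log2 fold changes of opposite sign between irradiated and normal constructs. Atg5 had 13.2, 84.5 and 30.5 CPM (irradiated), 47.8, 43.8 and 68.6 CPM (cocultured) and 71.1, 82.3 and 46.8 CPM (normal), with overlap in every comparison, and a log2 fold change of -0.64 ± 0.68 between irradiated and normal constructs. Atg7 had 27.5, 91.5 and 28.4 CPM (irradiated), 30.2, 5.27 and 17.5 CPM (cocultured) and 5.34, 10.9 and 24.6 CPM (normal), where irradiated lay above normal libraries by 1.85 ± 1.09 (adjusted p = 0.673 in edgeR) and irradiated 2 held the top value.

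**Figure D4:**
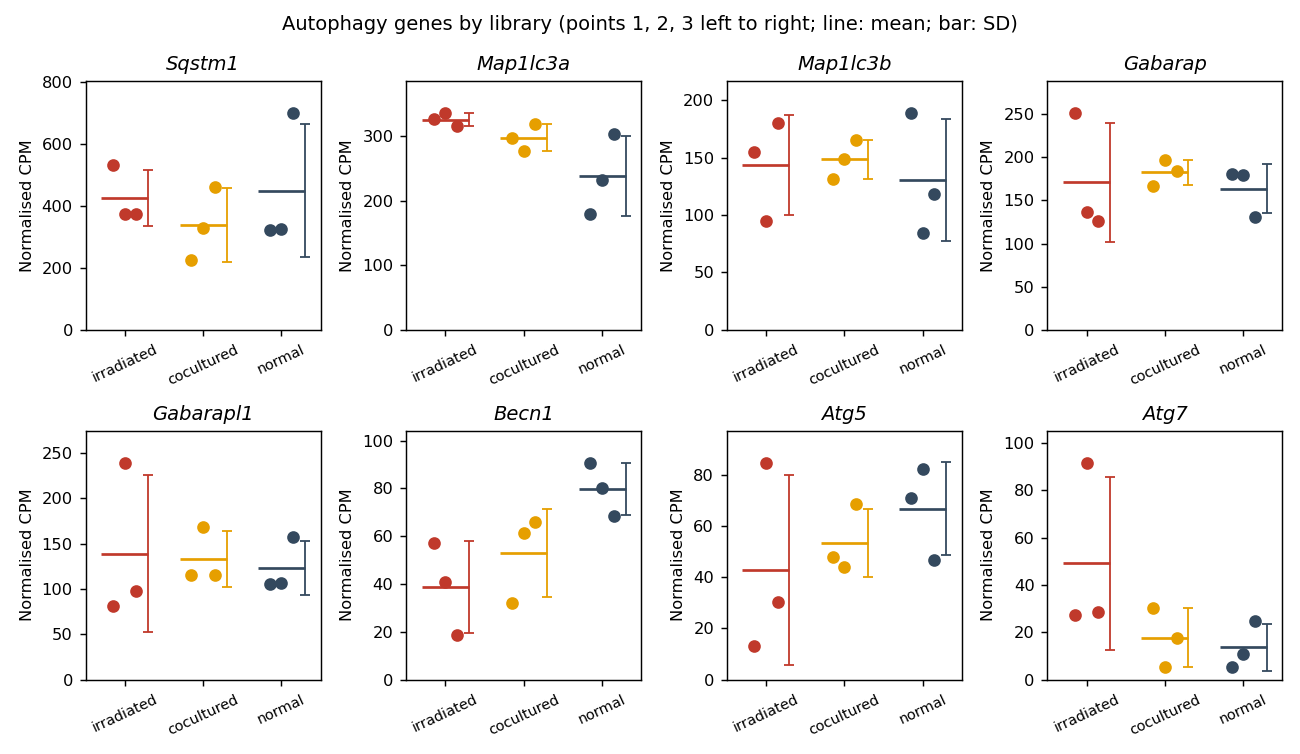
Normalised CPM of the 8 autophagy genes, with points for libraries 1, 2 and 3 of each group from left to right, a line at the group mean and a bar for the SD. Becn1 has all irradiated and cocultured points below the normal ones, Map1lc3a and Atg7 have all irradiated points above the normal ones, and the groups of the other 5 genes overlap.

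The wider pathway was read from 5 lists with 120 entries, of which 119 symbols were in the files and 112 were tested. In edgeR none of the 112 was called in any comparison at an adjusted p under 0.05. For irradiated over normal, 64 log2 fold changes were positive and 48 negative, and the median was 0.14. The same counts were 64 and 48 with a median of 0.12 for cocultured over normal, and 66 and 46 with 0.24 for irradiated over cocultured. Over all genes tested the medians were -0.21, -0.07 and -0.10 in the same comparisons. At an unadjusted p under 0.05, 2 of the 112 (1.79%) were higher and 1 (0.893%) lower for irradiated over normal, against 1.59% and 8.7% of all genes. For cocultured over normal 2 (1.79%) were higher and 0 lower, against 0.851% and 3.26%, and for irradiated over cocultured 1 (0.893%) was higher and 3 (2.68%) lower, against 2.25% and 7.33%. The list of other lysosomal enzymes, Sumf1 included (28 tested), had medians of 0.39, 0.43 and 0.25, and other membrane and sorting proteins (23 tested) had 0.58, 0.34 and 0.34. Other autophagy genes (37 tested) had medians of -0.26, 0.02 and -0.01.

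The list of other lysosomal enzymes also holds Sumf1, which activates sulfatases. Sumf1 had the smallest p of that list between irradiated and cocultured constructs. It measured 18.7, 0 and 0 CPM (irradiated), 49.2, 72.5 and 57.3 CPM (cocultured) and 34.3, 37.7 and 40.2 CPM (normal), with 2 of 3 irradiated libraries at 0 (adjusted p = 0.51 in edgeR).

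Laptm4a, a small membrane protein of late endosomes and lysosomes, led the membrane and sorting list against normal constructs, with 691, 1017 and 1279 CPM in the irradiated libraries, 744, 845 and 837 in the cocultured ones and 454, 819 and 492 in the normal ones. The groups overlapped, and the log2 fold change was 0.76 ± 0.34 in irradiated (adjusted p = 0.483 in edgeR) and 0.46 ± 0.34 in cocultured constructs. Tmem175, a lysosomal ion channel, led that list between irradiated and cocultured constructs, with 7.03, 1.22 and 0 CPM in irradiated against 41.8, 18.0 and 33.1 CPM in cocultured constructs (adjusted p = 0.493 in edgeR). Irradiated 3 had no count of it.

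In the autophagy list, Wipi1, which reads a lipid on growing autophagosomes, had the smallest p between irradiated and normal constructs. It measured 37.7, 105 and 32.5 CPM in irradiated constructs, 87.3, 102 and 72.2 CPM in cocultured constructs and 112, 113 and 148 CPM in normal constructs, and normal libraries lay above all others (adjusted p = 0.483 in edgeR, log2 fold change -1.09 ± 0.49). Atg4b, the protease that prepares LC3 for lipid attachment, came first between cocultured and normal constructs, with 18.7, 21.1 and 18.9 CPM in cocultured against 44.0, 30.5 and 63.5 CPM in normal constructs (adjusted p = 1 in edgeR). Bnip3, a receptor for the removal of mitochondria, came first between irradiated and cocultured constructs, with 60.9, 107 and 156 CPM in irradiated against 224, 183 and 323 CPM in cocultured constructs. The irradiated values were all lower, by a log2 fold change of -1.17 ± 0.40 (adjusted p = 0.493 in edgeR).

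The spread between replicates, as the SD of log2(CPM + 1) within groups, had a median of 0.37 for the 20 genes with a mean of at least 100 CPM. It was 0.71 for the 10 genes between 25 and 100 CPM and 1.71 for the 9 tested genes under 25 CPM, of which 4 were at 0 in at least 1 library. Atp6v1a, Hexa, Npc2, Grn, Atp6ap1, Ctsb and Map1lc3a belong to the first class, Gm2a, Lipa, Becn1 and Atg7 to the second, and Glb1, Tfeb, Lgmn and Ctsh to the third.

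**Figure D5:**
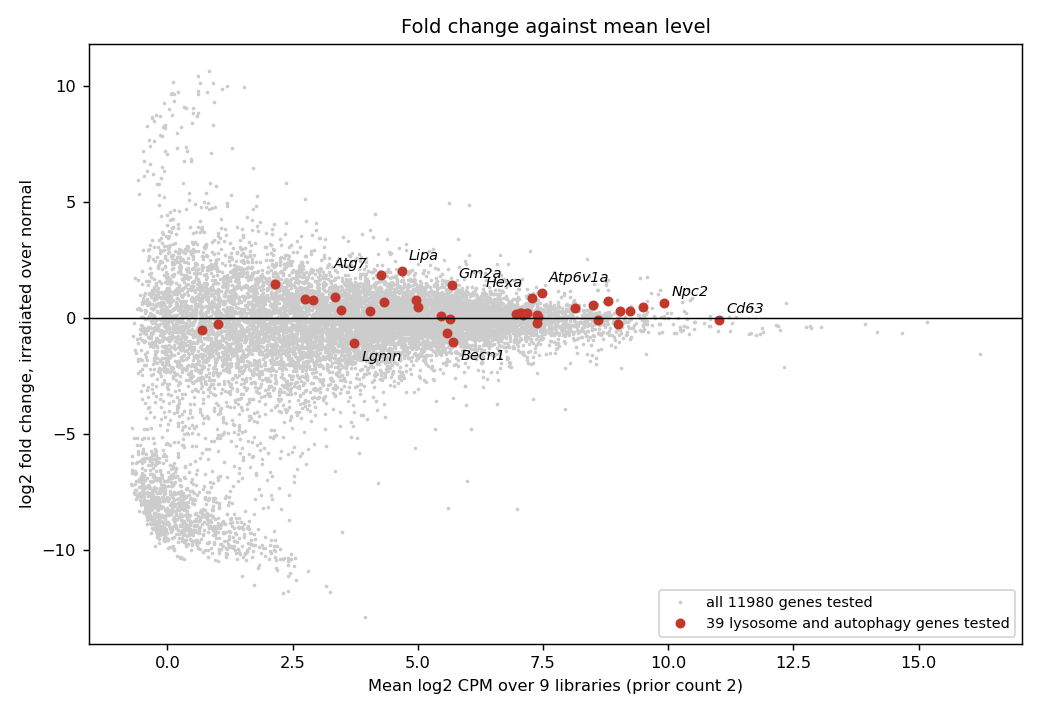
Log2 fold change of irradiated over normal constructs against the mean log2 CPM over the 9 libraries for all 11980 tested genes in grey and the 39 lysosome and autophagy genes in red; the horizontal axis orders genes by counts and not by amount of RNA. Above a mean of 50 CPM the median is 0.24 for 24 of the red points and -0.08 for all 3145 genes.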

How the data were processed

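QuantSeq 3′ FWD libraries from 9 constructs (100 ng RNA each) were read as 75 bp single ends. What the authors deposited are raw counts, whole numbers for each gene symbol with no normalization. The submitters' processing notes name FastQC, STAR, HTSeq, GRCm39 and mm39 without versions. The sources used here do not give the annotation, the strand setting or the handling of duplicates, and overlapping, antisense or near-identical genes may share reads. Column names carry numbers 1 higher than the labels do, and samples followed the deposit's record.

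Genes passing edgeR's default expression filter (11980) were tested in R 4.3.3 with edgeR 4.0.16 (trimmed-mean scaling, quasi-likelihood test, all 9 libraries, group as the only term) and adjusted over all genes at 0.05. DESeq2 1.42.0 and limma 3.58.1 voom were among 23 alternatives. Scripts were tested on simulated data, with the pass rule set where replicates spread less than in these data. That test does not show how well changes are found at the spread seen here. Standard errors were derived from the test statistic. The 41 genes and the lists were chosen with earlier results of these data known. Genes were named if called, if among the 4 smallest p-values per direction and comparison, or if in a set panel of 21, and from other lists by the smallest p; 1 gene that the last rule picked is not reported here.

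Replicates differed by more than sampling noise (chi-square per gene 35.4 to 297), so none was taken for a library deposited 2 times; this does not show whether constructs shared a dish. Same-numbered libraries did not deviate together (correlations of -0.07 to 0.05), so numbers were not taken to pair samples. Intervals and limits cover counting error only, since the labels name no molecular identifiers.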

Additional observations from a re-analysis of the deposited data

How the results depend on the processing

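No edgeR setting called any of the 39 genes. DESeq2 called 2 of them in irradiated against normal and 2 in irradiated against cocultured constructs, and limma voom called 1 against cocultured constructs. Leaving out any 1 library gave 0 calls in each comparison. Among all genes the count of calls moved far more: against 7, 0 and 4 (irradiated against normal, cocultured against normal, irradiated against cocultured), DESeq2 called 455, 124 and 529, limma voom 25, 0 and 105, no low-count filter 130, 52 and 153, a mean of at least 50 CPM 24, 0 and 2, the 6 libraries of each comparison alone 0, 0 and 0, and library totals 9, 0 and 9. Leaving out 1 library gave 6 to 147, 0 and 1 to 97, the highest without irradiated 1; leaving out irradiated 2 and irradiated 3 gave 190, 96 and 449, where irradiated 1 alone stood for its group and its spread was assumed to be that of the others, so that these counts are not like those of 3 against 3, and leaving out irradiated 1 and normal 3 gave 20, 1 and 21.

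The replicate numbers were not shown to pair the samples, and a replicate block gave 0 calls among these genes in each comparison and 23, 0 and 12 among all genes. With the block the log2 fold change of Sqstm1 in irradiated against normal constructs was 0.042.

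The median log2 fold change over the tested genes moved with library totals in place of trimmed-mean scaling, to 0.71, 0.61 and 0.15, while the median of all genes went to 0.14, 0.48 and -0.28; relative to all genes the difference was 0.58, 0.12 and 0.43. In irradiated against cocultured constructs it was 0.23 with limma voom and 0.53 without irradiated 2 and irradiated 3. With 1 library left out it ran between 0.31 and 0.41, -0.050 and 0.10, and 0.28 and 0.47; the cocultured median of 0.10 came without cocultured 1. The count of genes higher in irradiated than in normal constructs at an unadjusted p under 0.05 was 6 with all libraries, 2 with the replicate block and 3 to 5 with 1 library left out, with 3 without normal 2, normal 3, irradiated 3, cocultured 1 or cocultured 2. In irradiated against cocultured constructs it was 5, against 1 without cocultured 1, 2 without cocultured 2 and 3 without irradiated 3.

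Of 46 single log2 fold changes, 33 kept their sign in all settings. The others turned as follows for irradiated against normal constructs. Cd63 was 0.012 with DESeq2 and with its size factors in edgeR, 0.24 with library totals, 0.00453 with a mean of at least 50 CPM and 0.086 without irradiated 2 and irradiated 3. Library totals gave 0.13 for Ctsl, 0.063 for Grn and 0.41 for Sqstm1, and limma voom gave -0.12 for Gabarap. Without irradiated 1 and normal 3, Lamp1 was -0.15, Sqstm1 0.21 and Gabarap -0.44. Without irradiated 2 and irradiated 3, Glb1 was -0.96, Psap -0.23, Grn 0.31, Sqstm1 0.24 and Gabarapl1 -0.61. With 1 library left out the ranges were -0.30 to 0.10 for Cd63, -0.31 to 0.24 for Gabarap, -0.46 to 0.46 for Gabarapl1, -0.19 to 1.28 for Glb1, -0.55 to 0.014 for Grn, -0.28 to 0.55 for Lamp1, -1.63 to 0.33 for Lgmn, -0.10 to 0.53 for Map1lc3b and -0.26 to 0.39 for Sqstm1. For cocultured against normal, Sqstm1 was 0.28 with library totals, 0.052 without irradiated 1 and normal 3, and -0.70 to 0.054 with 1 library left out. Becn1 in irradiated against cocultured constructs was 0.096 without irradiated 2 and irradiated 3. The cause of these turns was not tested.

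With 3 libraries a group and a wide spread among them, p-values over the missed threshold do not show that levels were equal.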
